A study of Mus musculus with 7 samples.

Results

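Prdm1, Irf4, Xbp1, Bcl6, Bach2, Pax5, Irf8, Spib, Ebf1 and Pou2af1 encode transcription regulators that set B cells against plasma cells, the antibody-secreting cells into which B cells develop. They were chosen by name, for the balance between the 2 programmes, and are 10 of the 46959 features in the deposited table. All 10 were measured and tested in splenic B cells labelled cKO MED1, set against WT cells. Prdm1 and Irf4 were higher in cKO MED1 cells, and Bcl6, Bach2, Pax5, Irf8 and Spib were lower. Xbp1, Ebf1 and Pou2af1 did not pass the test. The calls have limits, as sex was largely confounded with genotype. With sex as a covariate only Bcl6 was called, and with 1 surrogate variable 0 of the 10 genes were. The call of Irf4 held in 12 of 25 alternative settings. Among 29 tested genes of the antibody-secreting programme, 2 rose and 6 fell, where 13.4% of all genes tested rose and 14.6% fell.

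As background, the network works by mutual repression. PAX5, EBF1, SPIB, IRF8, BACH2 and BCL6 hold B cell identity and keep Prdm1 low, whereas BLIMP1, the protein of Prdm1, represses Pax5, Bcl6 and other B cell genes and is needed for full antibody secretion. IRF4 at a low level accompanies activation and at a high level drives Prdm1, and XBP1 builds the secretory apparatus once its mRNA has been spliced in the unfolded protein response.

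The cKO MED1 group held 4 libraries and the WT group 3. Med1 encodes a subunit of Mediator, the complex that joins enhancer-bound factors to RNA polymerase II, and cKO is read here as the label for its conditional deletion. In both groups, B cells purified from mouse spleen were cultured for 4 days in medium with 10% serum, the bacterial activator LPS at 1 µg/mL and the cytokine IL-4 at 20 ng/mL, and ribosomal RNA was removed from total RNA before stranded libraries were sequenced as pairs of 150 bp reads. The Cre driver, strain, age and other alleles of the mice, and whether the replicates came from separate mice, are not given in the sources used here. The p-values therefore measure how far these libraries scatter, which may be technical.

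Recovered reads numbered 31937372 to 49603193 in cKO MED1 libraries and 54736580 to 61149274 in WT libraries, so every WT library was deeper. Levels below are normalised reads, the recovered reads scaled to a common library of 48019763 reads, and fold changes are cKO MED1 minus WT on the scale log2(normalised reads + 1). A gene is said to have risen or fallen where its limma p, adjusted by Benjamini-Hochberg over all 18062 genes tested, was under 0.05. Med1 itself had 2585, 2172, 2249 and 2436 normalised reads in cKO MED1 replicates 1 to 4, against 4755, 4173 and 4210.1 in WT replicates 1 to 3. It fell by 0.89 on the log2 scale (SE 0.09, adjusted p = 0.000174), so that 53.9% of the WT level remained. Which exons were deleted was not stated. The B cell label matched the markers, with Cd79b, a chain of the B cell receptor, at 21853 to 24840.2 normalised reads in cKO MED1 libraries and 28969 to 31794 in WT libraries, whereas the 6 T cell markers together had 28.5 to 139 in cKO MED1 libraries and 32.6 to 46.3 in WT libraries.

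Libraries also stood apart in ways that the labels do not name. Reads of Y-linked Ddx3y were present at 4496 to 4895 normalised reads in the 3 WT libraries and at 4469.9 in cKO MED1 replicate 3, but at 0 to 4.07 in cKO MED1 replicates 1, 2 and 4, so genotype and sex were largely confounded. WT replicate 2 also held 1241 normalised reads of Xist, made from the inactive X chromosome of female cells, against 59.2 and 11.2 in WT replicates 1 and 3 and 36381 to 41073 in cKO MED1 replicates 1, 2 and 4. The part of this in the levels of WT replicate 2 was not tested, and values without that library are given where it changes a call. Reads over olfactory and vomeronasal receptor genes, which are used mainly by sensory neurons, ran at 0.227 to 0.966 per kb in cKO MED1 libraries and 0.116 to 0.235 per kb in WT libraries. At that rate such background came to at most 0.673% of the reads of any of the 10 genes, the highest being Bcl6 in cKO MED1 replicate 4. In such bulk samples fewer cells of a type and less RNA per cell cannot be told apart.

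The gene spans are given in build GRCm38 with the GENCODE annotation, in which all 10 are protein-coding. Prdm1 lies at chr10:44437177-44528501 on the minus strand, Irf4 at chr13:30749226-30766976 on the plus strand and Xbp1 at chr11:5520659-5525893 on the plus strand. Bcl6 lies at chr16:23965052-23988852 on the minus strand and Bach2 at chr4:32238804-32586108 on the plus strand. Pax5 lies at chr4:44524757-44710487 on the minus strand, Irf8 at chr8:120736358-120756694 on the plus strand and Spib at chr7:44525993-44532071 on the minus strand. Ebf1 lies at chr11:44617317-45008091 and Pou2af1 at chr9:51213708-51240080, both on the plus strand. Annotated genes that overlap them had few reads of their own, at most 1.996% of the member's reads in any library, for Gm37419 opposite Bcl6.

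Promoter windows are shown for the 4 members that changed and held a pattern of interest. Each window is 300 bases around a RefSeq start, most of them upstream, in build GRCm38.p6, and all 10 genes matched the RefSeq table, with 13 windows. The capitals mark TTCNNNGAA, the inverted repeat shared by sites of several STAT factors and, within a longer site, of BCL6, and TGANTCA, the AP-1-like core that also lies in the longer element bound by BACH2 with small MAF proteins.
Prdm1, chr10:44458699-44458998, minus strand: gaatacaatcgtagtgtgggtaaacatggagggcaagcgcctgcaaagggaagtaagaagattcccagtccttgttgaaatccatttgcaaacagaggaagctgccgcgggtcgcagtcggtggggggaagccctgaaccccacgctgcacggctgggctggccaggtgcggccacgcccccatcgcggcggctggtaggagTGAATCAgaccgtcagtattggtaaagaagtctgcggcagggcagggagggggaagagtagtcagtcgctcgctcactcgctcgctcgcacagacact
Bcl6, chr16:23981234-23981533, minus strand: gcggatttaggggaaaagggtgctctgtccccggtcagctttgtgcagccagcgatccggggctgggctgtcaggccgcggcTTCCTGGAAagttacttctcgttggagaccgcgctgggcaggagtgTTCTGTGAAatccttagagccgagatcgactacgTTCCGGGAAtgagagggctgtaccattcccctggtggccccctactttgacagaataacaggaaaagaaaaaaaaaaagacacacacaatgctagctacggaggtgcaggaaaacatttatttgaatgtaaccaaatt
Bach2, chr4:32417185-32417484, plus strand: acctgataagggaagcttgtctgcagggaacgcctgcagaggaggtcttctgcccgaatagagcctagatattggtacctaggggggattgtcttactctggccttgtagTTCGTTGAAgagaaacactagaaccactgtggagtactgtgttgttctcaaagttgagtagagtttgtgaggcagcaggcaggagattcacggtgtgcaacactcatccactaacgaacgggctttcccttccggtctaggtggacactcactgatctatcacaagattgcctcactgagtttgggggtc
Irf8, chr8:120736108-120736407, plus strand: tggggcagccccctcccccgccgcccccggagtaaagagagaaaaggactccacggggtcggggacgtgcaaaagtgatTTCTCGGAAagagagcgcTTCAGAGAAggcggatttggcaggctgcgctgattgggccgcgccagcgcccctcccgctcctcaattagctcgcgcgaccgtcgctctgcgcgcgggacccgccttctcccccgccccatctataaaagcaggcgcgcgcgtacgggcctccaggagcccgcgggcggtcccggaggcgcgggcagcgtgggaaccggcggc

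Both patterns read the same on either strand. TTCNNNGAA occurred in 4 of the 13 windows, belonging to Bcl6, Irf8 and Bach2, and in 8.30% of the 32851 promoter windows of that length in the table. The Bcl6 window printed above holds it 3 times, and another Bcl6 window holds it once. TGANTCA occurred among the members only in the Prdm1 window, and in 7.81% of all windows. Searched on both strands, GAAANNGAA, an IRF-like pattern found in 8.56% of all windows, was in 1 Ebf1 window, and GGAANNGAA, an ETS-IRF-like pattern found in 8.24%, was in a window of Bach2 and of Bcl6; these can overlap each other. The octamer ATTTGCAT, found in 1.74% of all windows, was in none of the 13. A match is a run of letters and not a measured site.

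Among the regulators of the plasma cell side, Prdm1 and Irf4 rose and Xbp1 did not pass the test. Prdm1 had 4358, 3696, 4716 and 4758 normalised reads in cKO MED1 replicates 1 to 4, against 2552, 2150.2 and 3436 in WT replicates 1 to 3. Every cKO MED1 library lay above every WT library, and WT replicate 3 came nearest. The means were 4382 ± 491 in cKO MED1 cells and 2713 ± 658 in WT cells (SD, n = 4 and 3), a fold change of 0.71 on the log2 scale (SE 0.15, 95% interval 0.39 to 1.03, limma adjusted p = 0.00785). This was the largest rise among the 10 genes.

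Irf4 encodes a factor that is induced on activation and acts upstream of Prdm1. It had 21920.4, 20423, 23717 and 21339 normalised reads in cKO MED1 replicates 1 to 4, against 16332, 13598 and 20079 in WT replicates 1 to 3. The groups did not overlap, although cKO MED1 replicate 2 and WT replicate 3 were close. The means of 21849.8 ± 1389 in cKO MED1 cells and 16669 ± 3254 in WT cells (SD, n = 4 and 3) gave a fold change of 0.41 (SE 0.13, 95% interval 0.12 to 0.70, limma adjusted p = 0.0414). That rise was near the threshold: with the authors' size factors it was 0.27 (limma adjusted p = 0.193), and its adjusted p ran between 0.0183 and 0.527 over 25 alternatives. The call was also lost without WT replicate 1 (0.35), WT replicate 2 (0.21), cKO MED1 replicate 1 (0.39), cKO MED1 replicate 3 (0.39) or cKO MED1 replicate 4 (0.44).

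Xbp1 encodes the factor that enlarges the endoplasmic reticulum of secreting cells, and these values count its spliced and unspliced mRNA together. It had 24719, 23961, 26166 and 22847 normalised reads in cKO MED1 replicates 1 to 4, against 30097, 26231 and 37408 in WT replicates 1 to 3. All cKO MED1 libraries lay below all WT libraries, but cKO MED1 replicate 3 and WT replicate 2 were almost level. The fold change of -0.34 (SE 0.13, 95% interval -0.63 to -0.05) missed the threshold at a limma adjusted p of 0.0705. It passed with the authors' size factors (-0.47, limma adjusted p = 0.0395) and without WT replicate 2 (-0.52, limma adjusted p = 0.0394), with adjusted p between 0.0146 and 0.475 over the 25 alternatives. The sign of the Xbp1 value was opposite to that of Prdm1 and Irf4.

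**Figure D1:**
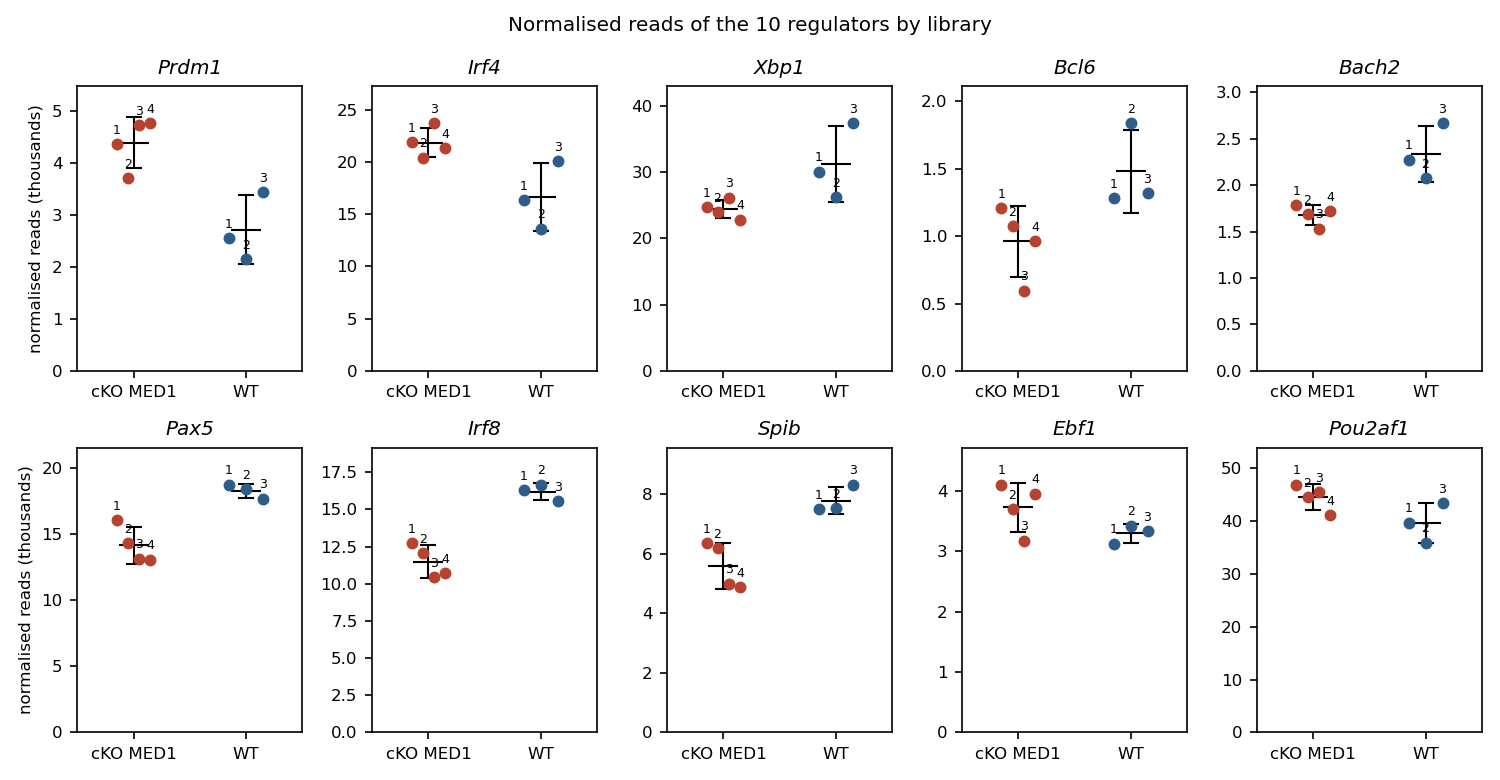
Normalised reads of each regulator in the 4 cKO MED1 and 3 WT libraries; points are libraries with their replicate numbers, long ticks are means and bars are SD, and each panel has its own axis from 0. In 8 of the 10 panels the groups do not overlap, as in 39.1% of all genes tested, and in those of Ebf1 and Pou2af1 they do.

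Of the repressors that hold back plasma cell development, both Bcl6 and Bach2 fell. Bcl6, the repressor of germinal centre B cells, had 1209, 1075, 594 and 963 normalised reads in cKO MED1 replicates 1 to 4, against 1283, 1838 and 1319.8 in WT replicates 1 to 3. It was lowest in cKO MED1 replicate 3 and highest in WT replicate 2, and cKO MED1 replicate 1 and WT replicate 1 nearly met. Its means were 960.1 ± 264 in cKO MED1 cells and 1480.0 ± 310.3 in WT cells (SD, n = 4 and 3), and it fell by 0.65 on the log2 scale (SE 0.21, 95% interval -1.12 to -0.19, limma adjusted p = 0.0409). Of the 10 genes Bcl6 varied most among cKO MED1 replicates, with a coefficient of variation of 27.5%. Among WT replicates it varied less than Prdm1, at 21.0% against 24.2%. Without cKO MED1 replicates 3 and 4 the fold change of Bcl6 was -0.35, and its call was lost. The call was also lost without WT replicate 1 (-0.80), WT replicate 2 (-0.54), cKO MED1 replicate 2 (-0.70), cKO MED1 replicate 3 (-0.42) or cKO MED1 replicate 4 (-0.65).

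Bach2 encodes a repressor of Prdm1 that also promotes class switching. It had 1781, 1687, 1530.4 and 1722 normalised reads in cKO MED1 replicates 1 to 4, against 2273, 2075 and 2667 in WT replicates 1 to 3. The cKO MED1 libraries were tightly grouped and all lay below the WT libraries. Bach2 averaged 1680.1 ± 107 in cKO MED1 cells and 2338 ± 301 in WT cells (SD, n = 4 and 3), and it fell by 0.47 on the log2 scale (SE 0.10, 95% interval -0.69 to -0.25, limma adjusted p = 0.00928), a call that held with each library left out in turn.

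Pax5, Irf8 and Spib, which maintain the identity and receptor signalling of mature B cells, fell by similar amounts. Pax5, which commits cells to the B lineage, had 16067, 14288, 13139.8 and 13052 normalised reads in cKO MED1 replicates 1 to 4, against 18733, 18393 and 17667 in WT replicates 1 to 3. The groups were separate, and the WT libraries differed little, with a coefficient of variation of 2.98%. Pax5 fell by 0.37 on the log2 scale (SE 0.10, 95% interval -0.60 to -0.15, limma adjusted p = 0.0246), leaving 77.4% of the WT mean. The call was lost without WT replicate 1 (-0.41), WT replicate 2 (-0.43), cKO MED1 replicate 3 (-0.32) or cKO MED1 replicate 4 (-0.32).

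Irf8 encodes a partner of PU.1 and SPIB that opposes IRF4 in B cells. It had 12739, 12062, 10441 and 10688 normalised reads in cKO MED1 replicates 1 to 4, against 16302, 16659 and 15544 in WT replicates 1 to 3. No cKO MED1 library came near the WT range. Irf8 averaged 11483 ± 1100.0 in cKO MED1 cells and 16168 ± 569 in WT cells (SD, n = 4 and 3), and it fell by 0.50 on the log2 scale (SE 0.10, 95% interval -0.72 to -0.27), at a limma adjusted p of 0.00748, the smallest adjusted p of the 10 genes.

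Spib encodes an ETS factor of B cells. It had 6342, 6187, 4985 and 4870.0 normalised reads in cKO MED1 replicates 1 to 4, against 7497, 7528 and 8316 in WT replicates 1 to 3. Within the cKO MED1 group, replicates 1 and 2 were higher than replicates 3 and 4, and all 4 lay below the WT libraries. Spib fell by 0.48 on the log2 scale (SE 0.11, 95% interval -0.73 to -0.24, limma adjusted p = 0.0130). The falls of Spib and Irf8 held with each library left out in turn. Both genes are also used by dendritic cells. The 4 markers fixed for the plasmacytoid kind summed to 537 to 714 normalised reads in cKO MED1 libraries and 806 to 978 in WT libraries, nearly all of it Pacsin1, which fell (-0.60, limma adjusted p = 0.00870), whereas Siglech, which defines these cells, was at most 10.5 in any library. The 4 markers fixed for the conventional kind summed to 3477 to 4604 in cKO MED1 libraries and 2369 to 3319 in WT libraries. Of the 3 tested, 2 rose, where 13.4% of all genes tested rose. Most of the sum was the cytokine receptor gene Flt3, which rose (0.65, limma adjusted p = 0.0104). It had 2866 to 3875 normalised reads in cKO MED1 libraries and 1868 to 2722 in WT libraries. Zbtb46 had 553 to 718 in cKO MED1 libraries and 474 to 588 in WT libraries, which overlapped. Clec9a had 8.77 to 47.6 in cKO MED1 libraries and 0.688 to 6.53 in WT libraries, with no overlap, as in 39.1% of all genes tested. At such low levels background reads also differed. The 16 neuronal and muscle genes fixed as silent summed to 824 to 1581 in cKO MED1 libraries and 651 to 816 in WT libraries. Xcr1, which defines a conventional kind, was at most 11.9 in any library. The part of the dendritic cell markers in the values of Irf8 and Spib was not tested.

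Ebf1 and Pou2af1, the other genes counted here as B cell regulators, had fold changes above 0 that did not pass the test. Both fold changes lay below 0 when libraries were scaled by total reads. Ebf1, the factor that opens the B cell programme ahead of Pax5, had 4103, 3694, 3178 and 3953 normalised reads in cKO MED1 replicates 1 to 4, against 3129, 3422 and 3335 in WT replicates 1 to 3. The ranges overlapped through cKO MED1 replicate 3, and the fold change was 0.17 (SE 0.10, 95% interval -0.05 to 0.39, limma adjusted p = 0.200). Without that library it was 0.27 (limma adjusted p = 0.0492), the only call among 25 alternatives, in which the adjusted p reached 0.924.

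Pou2af1 encodes OCA-B, the coactivator that OCT1 and OCT2 use at immunoglobulin promoters. It had 46875, 44532, 45438 and 41106 normalised reads in cKO MED1 replicates 1 to 4, against 39662, 35923 and 43404 in WT replicates 1 to 3. The ranges overlapped, and the fold change was 0.17 (SE 0.12, 95% interval -0.10 to 0.44, limma adjusted p = 0.305). For both genes the interval excludes a fall as large as that of Pax5 or Irf8. Pou2af1 is counted here on the B cell side. Over the 7 libraries its log2 levels had Pearson correlations of 0.91 with Irf4, 0.81 with Prdm1 and -0.07 with Xbp1. With the others counted on the B cell side they were -0.63 to -0.37, except 0.32 with Ebf1.

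Over the 10 genes, 2 were called higher in cKO MED1 cells, where 13.4% of the 18062 genes tested were called higher, and 5 were called lower, where 14.6% were called lower. All 10 were well expressed, and among the 6021 tested genes with the highest mean level the background was 5.60% called higher and 27.8% called lower. The groups did not overlap in 8 of the 10, against 39.1% of all genes tested. The median fold change of the 10 was -0.36 and that of all genes tested 0.04. These counts describe 10 genes chosen by name and carry no test of the list.

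**Figure D2:**
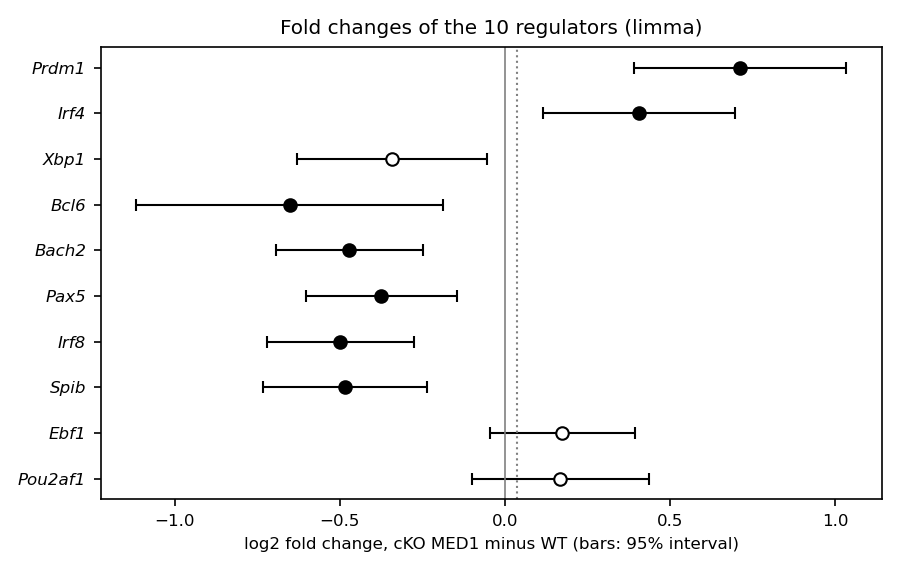
Log2 fold change, cKO MED1 minus WT, of each regulator on the horizontal axis, with bars for the 95% interval; filled points have a limma adjusted p under 0.05, the solid line is 0 and the dotted line is the median of all genes tested, 0.04. Prdm1 and Irf4 lie right of the line, 5 B cell regulators lie left of it, and Xbp1, Ebf1 and Pou2af1 are open.

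The balance between the programmes was also read as ratios of reads within each library, in which library scaling cancels. The log2 ratio of Prdm1 to Pax5, which repress each other's programmes, was -1.88, -1.95, -1.48 and -1.46 in cKO MED1 replicates 1 to 4, against -2.88, -3.10 and -2.36 in WT replicates 1 to 3. The log2 ratio of Prdm1 to Bcl6, another mutually repressing pair, was 1.85, 1.78, 2.99 and 2.31 in cKO MED1 replicates 1 to 4, against 0.99, 0.23 and 1.38 in WT replicates 1 to 3. The log2 ratio of Prdm1 to its repressor Bach2 was 1.29, 1.13, 1.62 and 1.47 in cKO MED1 replicates 1 to 4, against 0.17, 0.05 and 0.37 in WT replicates 1 to 3. In each of these ratios every cKO MED1 library lay above every WT library, by a mean of 1.09, 1.37 and 1.18 on the log2 scale for Pax5, Bcl6 and Bach2 in turn.

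Irf4 and Irf8, the opposed interferon regulatory factors, gave a log2 ratio of 0.78, 0.76, 1.18 and 1.00 in cKO MED1 replicates 1 to 4, against 0.00, -0.29 and 0.37 in WT replicates 1 to 3. It was again higher in every cKO MED1 library, by a mean of 0.90. The log2 ratio of Xbp1 to Pax5 was 0.62, 0.75, 0.99 and 0.81 in cKO MED1 replicates 1 to 4, against 0.68, 0.51 and 1.08 in WT replicates 1 to 3. Here the groups overlapped and their means differed by 0.03. Taken over the 7 genes counted as B cell regulators, the groups did not overlap in 6 of the 7 ratios under Prdm1, 5 of the 7 under Irf4 and 1 of the 7 under Xbp1. They did not overlap in 39.1% of single genes tested, and no such share was computed for ratios of other genes. The exceptions under Prdm1 and Irf4 were Ebf1 and, under Irf4, Pou2af1: the log2 ratio of Irf4 to Pou2af1 was -1.12 to -0.94 in cKO MED1 libraries and -1.40 to -1.11 in WT libraries. Under Xbp1 the separate ratio was that to Pou2af1, which was lower in cKO MED1 libraries, at -0.92 to -0.80, than in WT libraries, at -0.45 to -0.21. As means relative to WT over all members of a side, the plasma cell side stood at 0.14 to 0.37 in cKO MED1 libraries and -0.27 to 0.31 in WT libraries, which overlapped, and the B cell side at -0.50 to -0.13 in cKO MED1 libraries and -0.04 to 0.03 in WT libraries. The ratios share genes and libraries with the fold changes above and are no separate evidence of them.

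**Figure D3:**
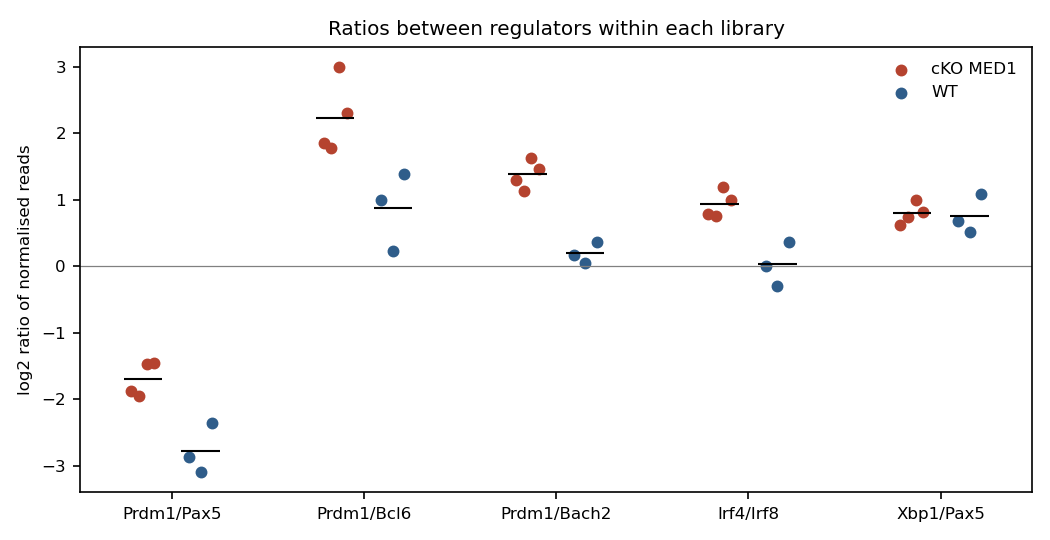
Log2 ratio of normalised reads between pairs of regulators in each library, cKO MED1 left of WT within each pair; points are libraries and short lines are group means. In the 4 ratios with Prdm1 or Irf4 on top the cKO MED1 libraries lie above the WT libraries, and in Xbp1/Pax5 the groups overlap.

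Set per kb of exon, so that genes can be compared, the levels of the 10 genes kept the same order in both groups. In normalised reads per kb, Pou2af1 was highest, with 17453 in cKO MED1 cells and 15560.1 in WT cells. Xbp1 followed with 7519 in cKO MED1 cells and 9619.9 in WT cells, and Irf4 with 4456 in cKO MED1 cells and 3399.9 in WT cells. Spib, Irf8 and Pax5 came next, between 1597 and 1951 in cKO MED1 cells and between 2063 and 2713 in WT cells. Prdm1 was seventh, with 785 in cKO MED1 cells and 486 in WT cells, so even after its rise it stayed below Pax5 in every library. Ebf1 had 383 in cKO MED1 cells and 338 in WT cells, Bach2 had 169 in cKO MED1 cells and 235 in WT cells, and Bcl6 was lowest with 143 in cKO MED1 cells and 221 in WT cells. Neighbours in that order whose libraries overlapped were Spib and Irf8, Irf8 and Pax5, and Bach2 and Bcl6 in cKO MED1 cells, and Irf4 and Spib, and Bach2 and Bcl6 in WT cells.

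Replicates of a group differed in ways that several members shared, on both sides of the network. Prdm1, Irf4, Xbp1, Bach2 and Pou2af1 were all lowest in WT replicate 2 and highest in WT replicate 3, and Bcl6 was highest in WT replicate 2. In cKO MED1 cells, Irf4 and Xbp1 were highest and Bcl6 and Bach2 lowest in replicate 3, but Prdm1 was highest in replicate 4 and Pou2af1 in replicate 1. Over the 7 libraries the genes most like Prdm1, among 8762 genes compared, were Zfp651, Derl3 and Mast4, with Pearson correlations of log2 levels of 0.990, 0.990 and 0.987. Derl3 encodes a protein of the pathway that removes misfolded proteins from the endoplasmic reticulum. The genes most like Bcl6 were Cd72, Tnfrsf26 and Otud7b, with correlations of 0.971, 0.968 and 0.960, and Cd72 encodes an inhibitory receptor of B cells. Such correlations describe 7 libraries that fall into 2 groups and differ in depth, and 120 genes passed 0.9 with Prdm1 and 55 with Bcl6.

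Of 40 other transcription factors of the B lineage, 39 were tested, 7 rose (17.9%) and 9 fell (23.1%), and their median fold change was 0.01. The shares of all genes tested were 13.4% and 14.6%, and those of the 6021 genes of highest level 5.60% and 27.8%. The share of the list that rose thus lay above both backgrounds and the share that fell lay between them, and the list was not tested as a set. The factors that fell included Klf2, which keeps lymphocytes quiescent and homing. It had 665 to 869 normalised reads in cKO MED1 libraries and 1346 to 2097 in WT libraries (fold change -1.28, limma adjusted p = 0.000421). Myc, a driver of growth, had 1717 to 2630.1 in cKO MED1 libraries and 3223 to 3787 in WT libraries (-0.71, limma adjusted p = 0.00591). Ikzf1, which encodes IKAROS, had 9191 to 10693 in cKO MED1 libraries and 13248 to 13915 in WT libraries (-0.46, limma adjusted p = 0.00676). Hhex, Ets1, Mef2c, Nfil3 and Foxp1 fell as well.

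The inhibitors of E proteins moved apart. Id2 had 367 to 463 normalised reads in cKO MED1 libraries and 156 to 255 in WT libraries, and it rose, with a fold change of 1.08 (limma adjusted p = 0.00219). Id3 had 399 to 500.5 in cKO MED1 libraries and 598 to 715 in WT libraries, and it fell, with a fold change of -0.58 (limma adjusted p = 0.00630). The other factors that rose were Ebf4, Tcf4, Foxo1, Atf6, Bach1 and Pou2f1. With the authors' size factors the counts of these other factors were 2 higher and 10 lower, a scaling that puts the median of all genes at -0.10, and with sex as a covariate they were 0 higher and 1 lower.

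The antibody-secreting programme held mixed changes beside the rise of Prdm1. Its 2 rises and 6 falls were 6.90% and 20.7% of the genes tested, and the median fold change was -0.11. The shares of all genes tested were 13.4% and 14.6%, and those of the 6021 genes of highest level 5.60% and 27.8%. The called genes Ly6c2, Sdc1, Fkbp11 and Cacna1s lay outside those 6021, so neither background matches the list in level. Sdc1, the plasma cell surface proteoglycan CD138, had 187, 201, 332 and 159 normalised reads in cKO MED1 replicates 1 to 4, against 541, 375 and 585 in WT replicates 1 to 3. Jchain, whose protein links IgM and IgA chains into polymers, had 12415, 13429.9, 27607 and 10728 in cKO MED1 replicates 1 to 4, against 35622, 39376 and 62597 in WT replicates 1 to 3. Both were lower in every cKO MED1 library and highest, within that group, in replicate 3. The fold change was -1.22 for Sdc1 (limma adjusted p = 0.00522) and -1.58 for Jchain (limma adjusted p = 0.00455).

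Ly6c2, a surface antigen of plasma cells, had 17.5 to 77.7 normalised reads in cKO MED1 libraries and 839 to 2615 in WT libraries, a fold change of -5.02 (limma adjusted p = 6.05e-05). Txndc5, a disulphide isomerase of the secretory pathway, had 10174 to 13877 in cKO MED1 libraries and 17519.7 to 25686 in WT libraries (-0.84, limma adjusted p = 0.00353). Derl3 went the other way, with 2510.0 to 3294 in cKO MED1 libraries and 1723 to 2479 in WT libraries (0.61, limma adjusted p = 0.0112). Fkbp11 and Eaf2 fell and Cacna1s rose. With total reads as the scaling 0 of the 29 rose and 11 fell, and with sex as a covariate 0 rose and 1 fell. The 5 plasma cell markers Sdc1, Jchain, Tnfrsf17, Slamf7 and Mzb1 summed to 44684 to 71628 normalised reads in cKO MED1 libraries and 67710 to 97715 in WT libraries. Mzb1 alone had 24061 to 37508 in cKO MED1 libraries and 23110 to 26369 in WT libraries (0.32, limma adjusted p = 0.117). Tnfrsf17 (-1.24, limma adjusted p = 0.0520) and Slamf7 (-0.22, limma adjusted p = 0.167) were not called either. The part of the 5 markers in the values of the 10 regulators was not tested.

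Among surface, signalling and other genes of the B cell programme, 32 were tested, 2 rose (6.25%) and 11 fell (34.4%), with a median fold change of -0.19. The shares of all genes tested were 13.4% and 14.6%, and those of the 6021 genes of highest level 5.60% and 27.8%, near those of the list. Cd79a, a chain of the B cell receptor and a known Pax5 target, had 6843 to 8461 normalised reads in cKO MED1 libraries and 13252 to 15246 in WT libraries (-0.88, limma adjusted p = 0.000378). The receptor gene S1pr1, which guides cells out of lymphoid organs and is a known target of KLF2, had 635 to 994 in cKO MED1 libraries and 1359.8 to 1546 in WT libraries (-0.95, limma adjusted p = 0.00177).

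Ms4a1, which encodes CD20, had 24992 to 32172 in cKO MED1 libraries and 42276 to 51631 in WT libraries (-0.66, limma adjusted p = 0.00773). Cd72, Fcer2a, Cd83, Ciita, Cd180, Cd79b and Cd22 also fell. Cd38 rose, with 2645 to 3153 in cKO MED1 libraries and 1629 to 2361 in WT libraries (0.58, limma adjusted p = 0.00877), as did Cr2. With total reads as the scaling 0 of the 32 rose and 15 fell, and with sex as a covariate 0 rose and 4 fell. The B cell markers Cd79a, Cd79b, Ms4a1 and Cd22 were thus each lower in cKO MED1 cells, and whether cell number has a part in the falls was not tested.

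**Figure D4:**
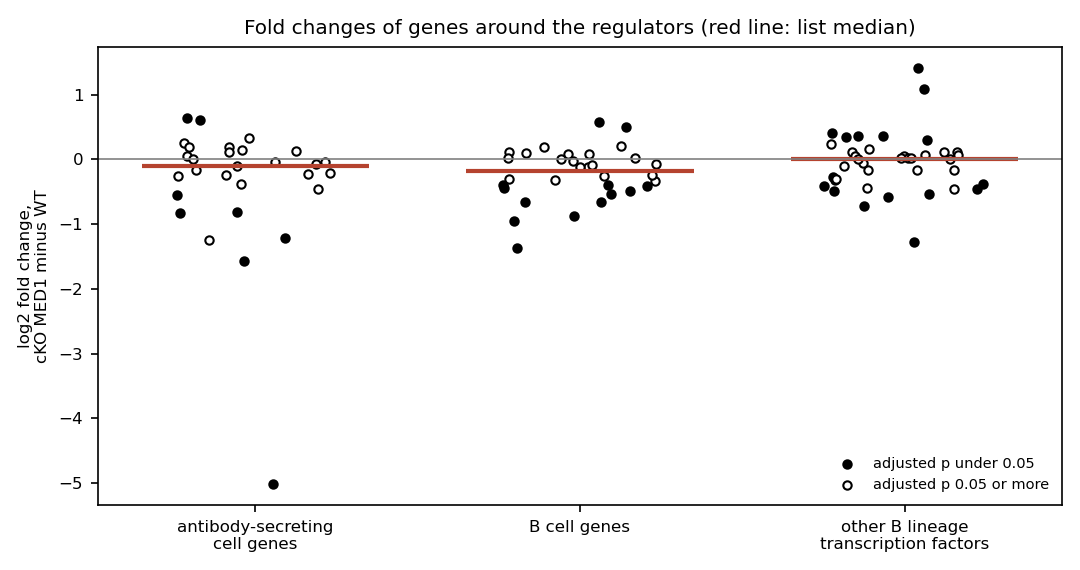
Log2 fold change, cKO MED1 minus WT, of every tested gene in 3 lists, with filled points for a limma adjusted p under 0.05 and a red line for the list median; horizontal spread within a list is only for legibility. The medians are -0.11 for 29 antibody-secreting cell genes, -0.19 for 32 B cell genes and 0.01 for 39 other transcription factors, and Ly6c2 is the point at -5.02.

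The calls depended on which libraries of either group and which covariates entered the fit, and on the scaling. The signs of the 7 called genes and of Xbp1 were the same in all 25 alternatives run. Prdm1, Bach2, Irf8 and Spib were called in 22, 22, 23 and 21 of them, and Irf4, Bcl6 and Pax5 in 12, 17 and 17. With sex as a covariate, which sets cKO MED1 replicate 3 alone against the WT libraries, Prdm1 gave 0.83 (limma adjusted p = 0.125), Irf8 gave -0.63 (limma adjusted p = 0.0884) and Bcl6 gave -1.30 (limma adjusted p = 0.0156), and Bcl6 was the only one of the 10 called. Without cKO MED1 replicates 3 and 4, the libraries with the most receptor gene reads, Irf8 was still called (-0.38, limma adjusted p = 0.0406), whereas Prdm1 was at 0.60 (limma adjusted p = 0.0664), Bach2 at -0.42 (limma adjusted p = 0.0557) and Spib at -0.30 (limma adjusted p = 0.0745). In the same fit Bcl6 was at -0.35 (limma adjusted p = 0.175), Pax5 at -0.26 (limma adjusted p = 0.127) and Irf4 at 0.37 (limma adjusted p = 0.158). Over all 25 alternatives the largest adjusted p was 0.233 for Prdm1, 0.170 for Bach2, 0.173 for Irf8, 0.318 for Spib, 0.492 for Bcl6 and 0.373 for Pax5, each with 1 surrogate variable. Measured against the median of all genes under the same scaling, Irf4 stood at 0.37 and Xbp1 at -0.38 both as reported and with the authors' size factors. Other size factors move all genes by nearly the same amount, so this match was fixed in advance and tests neither gene.

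**Figure D5:**
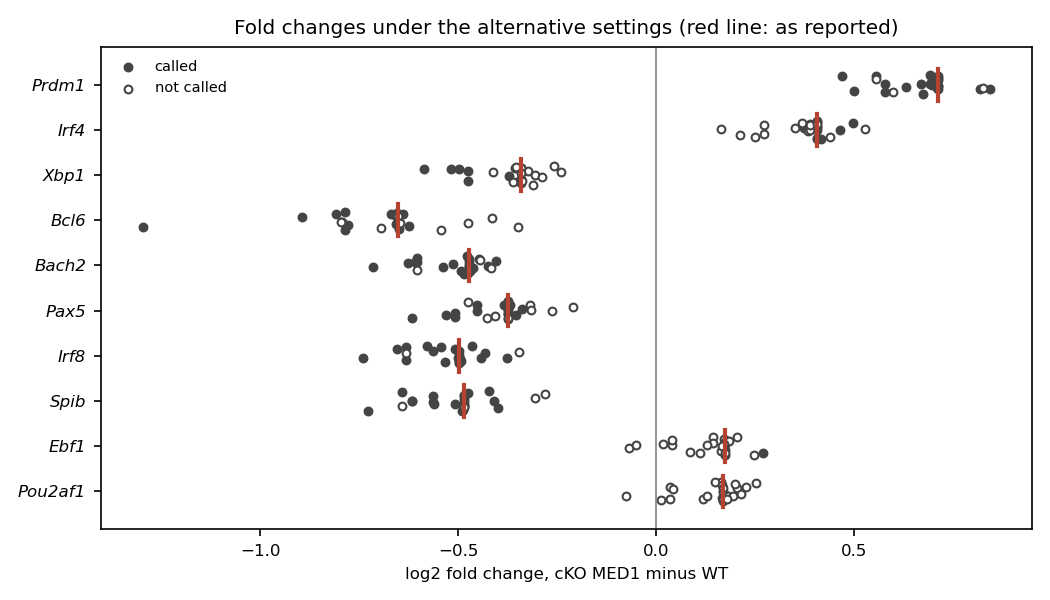
Log2 fold change, cKO MED1 minus WT, of each regulator under 25 alternative settings, 1 point each, filled where the gene was called; the red line is the value as reported and vertical spread is only for legibility. Points of the 7 called genes and of Xbp1 stay on their side of 0, and those of Ebf1 and Pou2af1 cross it.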

How the data were processed

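The authors deposited 1 table for the 7 libraries, whose unit is a signal: read counts divided by 1 size factor per library. All values (100%) were whole multiples of their library's step within 1e-06, so reads were recovered. Per the submitters' processing notes, the tools were DESeq2, R 3.4, Subread 1.5.0-p3, featureCounts and STAR 2.4.0a, on mm10/GRCm38. Their order and any use of strand in counting are not stated, so reads of antisense partners cannot be told apart. Recovered reads were filtered with filterByExpr and scaled by TMM (edgeR 4.0.16). All 18062 kept genes were fitted in R 4.3.3 by limma 3.58.1, trended on intensity, on log2(normalised reads + 1), which understates changes of low genes. Samples were grouped by GEO title. The text names the 10 genes, Med1, up to 5 called genes of smallest adjusted p from each list, and the 3 genes most correlated with Prdm1 and with Bcl6 (mean CPM of at least 5; immunoglobulin segments, predicted genes and Y-linked genes left out); the remaining called list genes, the dendritic markers, Ddx3y and Xist were named after their values were seen. The 10 genes, lists and tests were chosen with earlier results of these data known. Mef2b was filtered out, and Tent5c was not matched. Some genes that this rule takes are not reported here. The limma script was tested on simulated reads. Alternatives were other scalings, filters, pseudocount 5, edgeR's quasi-likelihood test, DESeq2 1.42.0, limma-voom, a replicate block, sex, 1 surrogate variable (sva 3.50.0), background subtraction, a threshold of 0.01 and libraries left out; TMM over all features, a pooled receptor background and the full set of ratios were added after seeing the data.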

Additional observations from a re-analysis of the deposited data

How the results depend on the processing

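The 7 called fold changes and that of Xbp1 kept their sign in all 25 alternatives, some of which could not change a sign. The uncalled Ebf1 and Pou2af1 changed sign in 2 and 1 of the 25. The 2 members called higher became 1 with RLE size factors, total reads, the authors' size factors, TMM over all features or a threshold of 0.01, and 0 with sex as a covariate, with 1 surrogate variable or without cKO MED1 replicates 3 and 4. The 5 called lower became 1 with sex as a covariate, 0 with 1 surrogate variable, 1 without those libraries and 2 at a threshold of 0.01. They became 6, with Xbp1 added, with RLE size factors, total reads, the authors' size factors, TMM over all features or DESeq2. All genes called, 5065 as reported, were 228 with sex, 241 with 1 surrogate variable, 2145 without those libraries and 1307 at a threshold of 0.01. With 1 library left out, members called higher were 1 to 2, members called lower 3 to 5 and all genes called 1556 to 6126; the lowest all-gene count was without WT replicate 1. Scalings moved the median of all genes between -0.21 and 0.04, and 47.8% of calls were higher as reported, 31.8% with total reads and 37.3% with the authors' size factors. Replicate numbers are shared by the groups but did not pair the libraries (correlations of deviations 0.515, -0.235 and 0.163), and with the number as a replicate block 2 members were called higher, 5 lower and 3741 genes in all. The causes were not tested; fits without libraries also have fewer samples. The lowest level among the 10 genes was 594 normalised reads, from 451 recovered reads, for Bcl6 in cKO MED1 replicate 3. Depth differed between the groups, and its part in the calls was not tested. Where sex or the surrogate variable enters, few libraries separate it from genotype, and the loss of a call does not show that the effect is absent.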
